A study of Mus musculus with 7 samples.

Results

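Genes that carry glucose into the cell and through glycolysis, lactate exchange, pyruvate dehydrogenase and the pentose phosphate pathway were followed in mouse sensory ganglia after nerve injury. The set holds 36 gene symbols, chosen by name from the pathway, and each one matched the deposited table of TPM values (a unit of transcript abundance that corrects reads for transcript length and gives every sample the same total). Aldoa matched 2 rows, so 37 of the 54309 rows of the table belong to the set. Of these, 36 averaged 1 TPM or more across the samples and were tested. Pdk4 did not pass that filter, at 0.414 to 1.76 TPM at ZT20 and 0 to 1.21 TPM at ZT8.

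The samples came from male C57bl/6 mice aged 6-8 weeks, without any transgene named in the labels. Lumbar (L4-6) dorsal root ganglia, which hold the cell bodies of sensory neurons, were collected 72 h after injury of the sciatic nerve. The ZT20 group (4 samples) was injured and dissected at Zeitgeber time 20, in the dark phase, and the ZT8 group (3 samples) at Zeitgeber time 8, in the light phase. Uninjured ganglia were not analysed here, so every value below is from injured ganglia. The tissue was dissociated with enzymes and neurons were enriched on an albumin gradient. Time of injury and time of dissection share 1 clock time in each group and cannot be told apart, nor can any library batch, since library names carry digits at ZT20 and letters at ZT8. Whether 1 sample came from 1 animal or from pooled animals is not given in the sources used here, so p-values measure only the spread between these samples.

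Neurons take up glucose through facilitative transporters and split it in the cytosol to pyruvate, with a net gain of ATP and NADH. Pyruvate either enters mitochondria through the pyruvate dehydrogenase complex or is reduced to lactate, which monocarboxylate transporters move across the plasma membrane. Many steps have isozymes encoded by separate genes with different cellular distributions. Enolase 2 is the enolase of mature neurons, aldolase C is abundant in glia and in some neurons, and the B subunit of lactate dehydrogenase is typical of oxidative tissue. Axon regrowth is an energy-demanding process, and glycolytic enzymes travel in axons as well as acting in the cell body.

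Several libraries stood apart. ZT8 replicate 2 had 18297 genes above 0 TPM against 22541 to 25238 in the other 6, and it held the lowest value of the 7 samples for 22 of the 36 tested rows of the set (61.1%), against 40.2% of all tested genes. Although all mice are labelled male, 4 Y-linked genes (Uty, Kdm5d, Eif2s3y, Ddx3y) together reached only 0.0162 and 0.00868 TPM in ZT20 replicates 3 and 4, against 33.1 to 84.6 TPM elsewhere, and Xist was at 2.21 and 2.30 TPM there. ZT20 replicate 2 held both kinds of transcript. Values without ZT8 replicate 2 and without ZT20 replicates 3 and 4 are therefore given for the members that passed and for 5 other genes. Sequencing depth and counting error are unknown, because TPM keeps neither.

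The markers of the tissue were present. Summed TPM of 14 neuron markers ran from 20668 to 25418 at ZT20 and from 15709 to 23063 at ZT8, and 4 of them (Elavl4, Nefh, Scn9a and Thy1) were higher at ZT20 by the test used below. Summed TPM of 8 satellite glia markers ran from 7079 to 8594 at ZT20 and from 11902.5 to 14596 at ZT8, and 2 of them (Apoe and Fabp7) were lower at ZT20. Apoe alone made up 87.3% to 92.9% of that sum, and the 6 markers that did not pass ran from −0.68 for Slc1a3 to 0.38 for Cdh19 on the log2 scale, with Cdh19, Gja1 and Kcnj10 above 0. None of the markers in either list was at 0 in all samples. Of the other markers, 1 of 8 tested Schwann cell genes (Drp2) was higher, 1 of 10 macrophage genes (Mrc1) was higher and 1 (C1qa) lower, 1 plasma cell gene (Mzb1) was lower, and no endothelial or fibroblast marker passed. Summed TPM of erythroid genes ran from 2369 to 6679 at ZT20 and from 951 to 9534 at ZT8. The part of these markers in the results was not tested. In these dissociated, neuron-enriched bulk samples, fewer cells of a type, a different yield of the enrichment and less RNA per cell cannot be told apart.

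The members that passed the test were Eno2, Aldoc, Slc2a3 and Slc16a3. The enolase isozyme of neurons, Eno2, and the lactate-exporting transporter Slc16a3 rose at ZT20 together with the neuronal glucose transporter Slc2a3, while the aldolase isozyme Aldoc fell. By limma on log2(TPM + 1) with Benjamini-Hochberg adjustment over 14800 genes, 3 of the 36 tested rows were higher (8.33%) and 1 was lower (2.78%) at an adjusted p-value under 0.05. Over all tested genes, 12.8% were higher and 3.61% lower by the same rule. The median log2 difference of the set was 0.34, beside 0.23 over all tested genes. The split of calls depended on scaling. As deposited, 1899 of all genes were higher and 534 lower (16.4% in either direction). Under median-ratio scaling 7.62% of all genes were higher and 7.84% lower (15.5% together), their median was 0.033, and the set had 2 higher, 4 lower and a median of 0.10. Under quantile normalization these shares were 6.91% and 5.5% (12.4% together), and the set had 3 higher, 1 lower and a median of 0.22. After a correction for transcript length they were 3.3% and 4.84% (8.14% together), and the set had 1 higher, 3 lower and a median of 0.084. The groups did not overlap, with all ZT20 samples above all ZT8 samples, for 10 members (27.8%, against 24.5% of all tested genes), and with all ZT20 samples below for 5 (13.9%, against 8.72%).

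The sequences before the start sites of Eno2, Aldoc and Slc16a3 are shown because these genes had the largest differences past the threshold. The sequences are from RefSeq on GRCm38.p6, are taken by gene symbol, and run 5′ to 3′ over the 250 bases before an annotated start. A window was found for 34 of the 36 symbols. Capitals mark the short motifs searched for on both strands, namely ACGTG and GCGTG (2 forms of the core that hypoxia-inducible factors bind), CACGTG (the E-box that clock and other factors bind, which contains ACGTG) and AGGTCA (the core of the RORE element). Eno2 lies on the minus strand (chr6:124769674-124769923), both Aldoc starts on the plus strand (chr11:78322823-78323072 and chr11:78323948-78324197), and Slc16a3 on the plus strand (chr11:120948817-120949066).
Eno2: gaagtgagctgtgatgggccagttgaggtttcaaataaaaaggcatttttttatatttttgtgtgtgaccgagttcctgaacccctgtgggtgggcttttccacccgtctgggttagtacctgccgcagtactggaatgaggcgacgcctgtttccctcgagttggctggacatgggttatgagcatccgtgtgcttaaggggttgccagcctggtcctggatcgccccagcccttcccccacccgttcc
Aldoc, first start: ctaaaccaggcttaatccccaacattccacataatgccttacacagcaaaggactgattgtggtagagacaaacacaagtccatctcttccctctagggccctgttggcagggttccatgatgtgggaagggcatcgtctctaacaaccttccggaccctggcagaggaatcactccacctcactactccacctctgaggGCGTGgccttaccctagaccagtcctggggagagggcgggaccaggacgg
Aldoc, second start: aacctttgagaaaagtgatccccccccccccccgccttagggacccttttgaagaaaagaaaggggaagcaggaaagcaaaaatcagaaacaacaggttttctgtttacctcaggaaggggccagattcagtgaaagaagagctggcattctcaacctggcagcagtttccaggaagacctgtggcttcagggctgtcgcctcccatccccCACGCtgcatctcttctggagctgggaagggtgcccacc
Slc16a3: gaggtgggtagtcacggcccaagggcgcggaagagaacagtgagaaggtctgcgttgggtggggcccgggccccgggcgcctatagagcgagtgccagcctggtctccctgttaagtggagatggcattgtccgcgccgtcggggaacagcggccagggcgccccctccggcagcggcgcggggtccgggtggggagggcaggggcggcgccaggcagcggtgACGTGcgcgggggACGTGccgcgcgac
None of these motifs occurred in the Eno2 sequence shown. GCGTG or its reverse complement occurred once before each Aldoc start, and ACGTG occurred at 2 places before the Slc16a3 start.

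Across the whole windows, which also hold the 50 bases after the start, ACGTG was found in 23 of 51 windows of the set (45.1%) and in 19.6% of all 32851 windows. GCGTG was found in 56.9% and 32.4%, CACGTG in 11.8% and 7.15%, and AGGTCA in 13.7% and 16.3%. Several genes have more than 1 window, and base composition was not matched. These are matches of letters and say nothing of binding.

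Glucose enters through Slc2a1, the widely expressed transporter, and Slc2a3, the high-affinity transporter typical of neurons. Slc2a3 (ENSMUSG00000003153) was at 101, 102, 87.3 and 92.1 TPM in the ZT20 replicates and at 77.4, 52.7 and 50.5 TPM in those of ZT8. The lowest ZT20 value exceeded the highest ZT8 value. The log2 difference was 0.68 ± 0.17 (SE; limma adjusted p = 0.0283). Slc2a3 passed in 4 of 14 alternatives. It missed the threshold without ZT8 replicate 3, at 0.57 (limma adjusted p = 0.0754), and without any single ZT20 replicate, at 0.65 to 0.72 (limma adjusted p from 0.0629 to 0.0764). It was 0.45 under median-ratio scaling (limma adjusted p = 0.0929), and the difference shrank to 0.097 after each sample was corrected for its trend with transcript length (limma adjusted p = 0.727). Per 1000 TPM of the 14 neuron markers, Slc2a3 was at 3.61 to 4.96 at ZT20 and at 2.19 to 3.51 at ZT8. The 4 neuron markers that passed supplied only 3.69% to 8.73% of that sum. Relative to 1000 TPM of these 4 alone, Slc2a3 was at 47.4 to 58.3 at ZT20 and at 55.2 to 95.1 at ZT8, so the direction turned and the ranges overlapped. Slc2a1 (ENSMUSG00000028645) was at 53.5, 48.2, 48.8 and 53.5 TPM at ZT20 and at 42.2, 24.8 and 36.8 TPM at ZT8. Its groups did not overlap either, but the log2 difference of 0.58 did not pass (limma adjusted p = 0.063). It passed in 1 of 14 alternatives, without ZT8 replicate 1 (0.73, limma adjusted p = 0.0402). Without ZT8 replicate 2 it was 0.36, and the lowest value, 0.34, came after the length correction. Slc2a3 made up 63.25% to 68.0% of the transporter TPM of this pair at ZT20 and 57.8% to 68.0% at ZT8.

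Hexokinase, which traps glucose as glucose 6-phosphate, came almost wholly from Hk1, the isozyme of brain and other neural tissue. Hk1 (ENSMUSG00000037012) was at 197, 149, 210.2 and 210.4 TPM at ZT20 and at 158, 107 and 119 TPM at ZT8. ZT20 replicate 2 lay below the highest ZT8 sample, and the log2 difference of 0.58 (standard error 0.18) did not pass (limma adjusted p = 0.0554). It passed in 2 of 14 alternatives, without ZT20 replicate 2 (0.70, limma adjusted p = 0.0373) and without ZT8 replicate 1 (0.74, limma adjusted p = 0.0342). Hk1 was at 0.35 with median-ratio scaling and at 0.18 once corrected for length. Hk2, the inducible isozyme, was at 1.46 to 3.62 TPM at ZT20 and 0 to 2.12 TPM at ZT8, so Hk1 held at least 98.2% of hexokinase TPM in every sample. Gpi1, the isomerase of the next step, was at 363 to 479.9 TPM at ZT20 and 270.4 to 351 TPM at ZT8. Its ranges did not overlap and its log2 difference was 0.44 (limma adjusted p = 0.0589). Gpi1 passed in 2 of 14 alternatives, among them quantile normalization (0.54, limma adjusted p = 0.0437), and was at 0.21 with median-ratio scaling and 0.22 once corrected for length.

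Phosphofructokinase commits sugar to glycolysis, and its platelet-type gene Pfkp was the most abundant of the 3 in every sample. Pfkp (ENSMUSG00000021196) was at 335, 322, 394 and 374 TPM at ZT20 and at 263, 169 and 326 TPM at ZT8. ZT8 replicate 3 lay above the lowest ZT20 sample, and the log2 difference of 0.54 did not pass (limma adjusted p = 0.105). Pfkm, the muscle-type gene, was at 80.2 to 111 TPM and 45.5 to 88.1 TPM, with a log2 difference of 0.55 (limma adjusted p = 0.134). When 1 sample at a time was left out, Pfkm ran from 0.26 to 0.73 and Pfkp from 0.28 to 0.75, and Pfkp passed in 1 of these fits. Pfkl, the liver-type gene, was at 64.6 to 81.4 TPM and 58.2 to 88.0 TPM, with a log2 difference of 0.10 (limma adjusted p = 0.705). Pfkl and Pfkp were at −0.21 and −0.11 after the length correction. The Pfkl share of phosphofructokinase TPM was 13.85% to 14.4% at ZT20 and 14.05% to 21.3% at ZT8. Pfkfb3 and Pfkfb2 make and remove fructose 2,6-bisphosphate, the activator of phosphofructokinase. Pfkfb3 was at 37.0 to 57.4 TPM at ZT20 and 25.9 to 34.2 TPM at ZT8, without overlap (log2 difference 0.58, limma adjusted p = 0.0614). Corrected for length it was 0.12 (limma adjusted p = 0.701). Pfkfb2 was at 7.99 to 12.2 TPM and 6.58 to 16.4 TPM, with a log2 difference of 0.061 (limma adjusted p = 0.898).

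**Figure D1:**
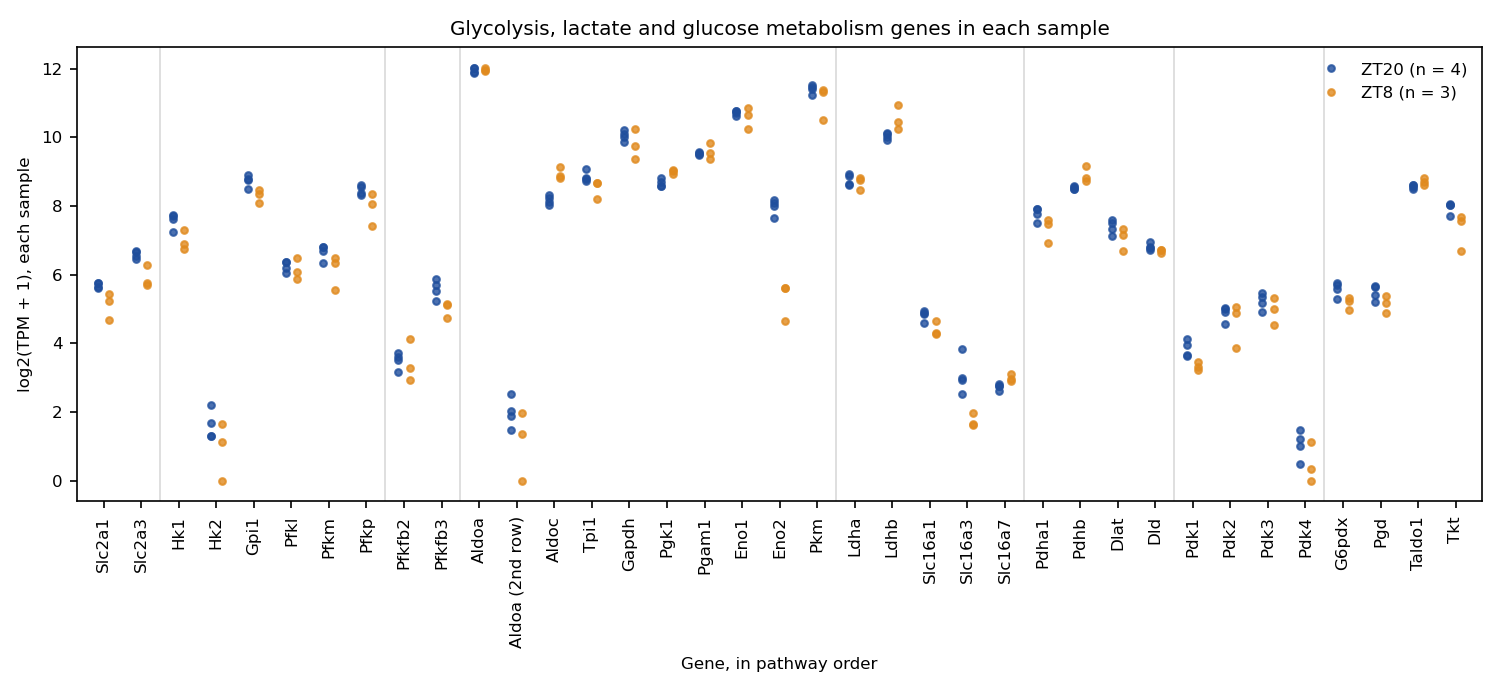
Level of each gene of the set as log2(TPM + 1) on the vertical axis, with 1 point per sample and the genes in pathway order along the horizontal axis (grey lines part the roles). Eno2 and Slc16a3 show the widest gap with ZT20 above ZT8, Aldoc shows the opposite order, and most genes have groups that overlap or touch.

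Aldolase splits the sugar into 2 trioses, and its isozymes behaved differently. Aldoc (ENSMUSG00000017390) was at 274, 319, 261 and 297 TPM in the ZT20 replicates and at 446, 472 and 567 TPM in those of ZT8. Every ZT20 sample was below every ZT8 sample. Aldoc fell by 0.78 on the log2 scale at ZT20 (standard error 0.12, limma adjusted p = 0.00815). Aldoa (ENSMUSG00000030695), the abundant isozyme, was at 4115, 4115, 3804 and 3754 TPM at ZT20 and at 3869, 4181 and 3972 TPM at ZT8. The Aldoa ranges overlapped, and its log2 difference was −0.022 (limma adjusted p = 0.889). The second Aldoa row (ENSMUSG00000114515) was at 1.78 to 4.71 TPM and 0 to 2.96 TPM.

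Aldoc was read beside the glial markers because glia express it. Per 1000 TPM of the 8 satellite glia markers, Aldoc was at 37.2, 43.7, 36.8 and 34.6 at ZT20 and at 31.6, 39.7 and 38.8 at ZT8. On that scale the groups overlapped. Apoe, however, supplied most of the marker sum. Per 1000 TPM of the 7 markers without Apoe, Aldoc was at 337, 345, 319 and 303 at ZT20 and at 411, 369 and 545 at ZT8. Those ranges did not overlap, so the outcome turned on Apoe. The part of cell composition in the Aldoc difference was not tested.

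The enzymes of the middle steps of glycolysis did not pass the test. Tpi1, the triosephosphate isomerase, was at 427 to 534 TPM at ZT20 and 292 to 410.5 TPM at ZT8, with no overlap (log2 difference 0.33, limma adjusted p = 0.155). Gapdh was at 934 to 1189.5 TPM and 656 to 1221 TPM (log2 difference 0.26, limma adjusted p = 0.371). Gapdh, a gene often used as a reference in expression studies, therefore varied more among the ZT8 samples than between the group means. In GENCODE M21, 180 other genes share at least 200 bases at 90% identity with a Gapdh transcript, most of them processed pseudogenes, and those in the table summed to 191 to 336 TPM, so its value is uncertain. Pgk1, the first ATP-yielding enzyme, was at 383, 447, 380.2 and 411 TPM at ZT20 and at 491, 514 and 529 TPM at ZT8. Its groups did not overlap in the direction of lower values at ZT20, and the log2 difference of −0.34 missed the threshold (limma adjusted p = 0.0558). Pgk1 passed in 1 of 14 alternatives, median-ratio scaling (−0.57, limma adjusted p = 0.0234), and was at −0.23 under quantile normalization. Pgam1, the mutase, was at 721 to 754 TPM and 657 to 919 TPM, with a log2 difference of −0.057 (limma adjusted p = 0.775). The differences of Tpi1 and Gapdh ran from 0.17 to 0.42 and from 0.049 to 0.50 when 1 sample at a time was left out.

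Enolase showed the largest difference of the set. Eno2 (ENSMUSG00000004267) was at 287, 199.7, 272 and 253 TPM in the ZT20 replicates and at 48.2, 47.5 and 24.3 TPM in those of ZT8. The lowest ZT20 sample was thus well above the highest ZT8 sample. The ZT20 mean was 253 ± 38.2 TPM (SD, n = 4) and the ZT8 mean 40.0 ± 13.6 TPM (SD, n = 3), a 6.32-fold ratio of the means. The log2 difference was 2.68 ± 0.25 (SE; limma adjusted p = 0.00193). No other annotated gene overlaps the Eno2 exons in GENCODE M21, and no other transcript shared 200 bases at 90% identity with it. Eno1 (ENSMUSG00000063524), the ubiquitous enolase, was at 1732, 1560.3, 1685 and 1725 TPM at ZT20 and at 1604, 1206 and 1859 TPM at ZT8. Its groups overlapped and its log2 difference was 0.13 (limma adjusted p = 0.571). Eno2 made up 11.35% to 14.2% of enolase TPM at ZT20 and 1.29% to 3.79% at ZT8.

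Neuron markers were read beside Eno2 because it is typical of neurons. The log2 differences of the 4 neuron markers that passed were 1.36 for Nefh, 1.08 for Elavl4, 0.90 for Scn9a and 0.87 for Thy1 (limma adjusted p-values of 0.00569, 0.00735, 0.0107 and 0.00466). The other 10 did not pass and ran from −0.096 for Uchl1 to 0.59 for Rbfox3. Per 1000 TPM of the 14 neuron markers, Eno2 was at 11.3, 9.66, 11.3 and 10.3 at ZT20 and at 2.19, 3.02 and 1.06 at ZT8. The groups remained apart on that scale, and relative to the 4 markers that passed, where Eno2 was at 111 to 167 at ZT20 and at 26.6 to 59.3 at ZT8. These ratios to markers were chosen after the values were seen and carry no test.

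**Figure D2:**
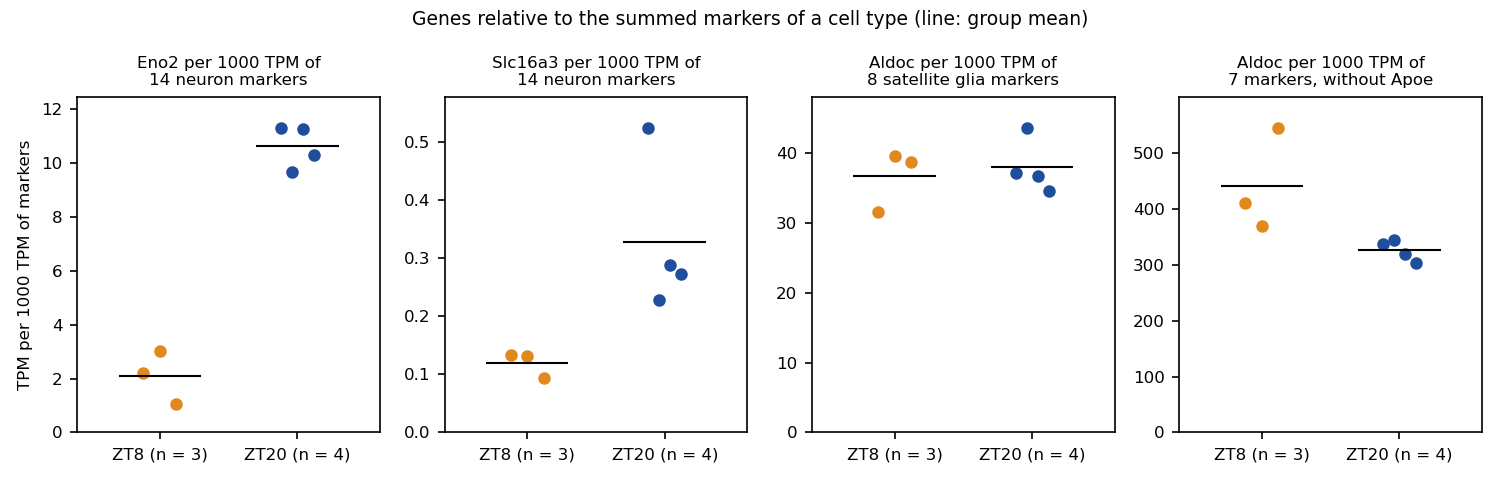
TPM of Eno2, Slc16a3 and Aldoc per 1000 summed TPM of the markers of 1 cell type (vertical axes, each starting at 0), with 1 point per sample and a line at the group mean. Eno2 and Slc16a3 stay apart between ZT20 (n = 4) and ZT8 (n = 3), while Aldoc overlaps over 8 satellite glia markers and not over the 7 without Apoe.

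Pyruvate kinase, encoded by Pkm, ends glycolysis and was second in abundance to Aldoa in the set at ZT20 and ZT8 alike by group mean. Pkm was at 2815, 2389, 2737 and 2921 TPM at ZT20 and at 2536, 1449 and 2641 TPM at ZT8. Only ZT8 replicate 2 was far below the rest, and the log2 difference of 0.34 did not pass (limma adjusted p = 0.268). Without ZT8 replicate 2 it was 0.065.

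Lactate dehydrogenase interconverts pyruvate and lactate, and its B-subunit gene was the more abundant. Ldhb (ENSMUSG00000030246) was at 1104, 1032, 974 and 1123 TPM at ZT20 and at 1394, 1200.5 and 1983 TPM at ZT8. Every ZT20 sample was below every ZT8 sample, but the log2 difference of −0.50 (standard error 0.17) did not pass (limma adjusted p = 0.0743). Ldhb passed in 2 of 14 alternatives, median-ratio scaling (−0.73, limma adjusted p = 0.0265) and without ZT8 replicate 2, and was at −0.29 without ZT8 replicate 3, its highest sample. Relative to 1000 TPM of the 8 satellite glia markers the direction turned, with each ZT20 sample at 131 or more and the ZT8 samples at 98.8 to 136, and the ranges overlapped. Without Apoe among the markers, Ldhb was at 1117 to 1359 at ZT20 and 938 to 1908 at ZT8, again with overlap. Ldha (ENSMUSG00000063229) was at 484, 388, 469 and 401 TPM at ZT20 and at 435, 352 and 447 TPM at ZT8, with overlapping groups and a log2 difference of 0.083 (limma adjusted p = 0.686). Ldha therefore made up 26.3% to 32.5% of lactate dehydrogenase TPM at ZT20 and 18.4% to 23.8% at ZT8.

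Monocarboxylate transporters were all at low levels. Slc16a3 (ENSMUSG00000025161), which encodes the low-affinity transporter known for lactate export from glycolytic cells, was at 13.3, 4.70, 6.98 and 6.71 TPM at ZT20 and at 2.93, 2.08 and 2.15 TPM at ZT8. The groups did not overlap, and ZT20 replicate 1 was well above the other ZT20 samples. The log2 difference was 1.32 ± 0.32 (SE; limma adjusted p = 0.0273). Slc16a3 passed in 5 of 14 alternatives. Without ZT20 replicate 1 it was 1.07 (limma adjusted p = 0.054), without ZT20 replicate 3 it was 1.35 (0.0805), without ZT20 replicate 4 it was 1.36 (0.0741) and without ZT8 replicate 3 it was 1.27 (0.068). After the length correction it was 0.91 (limma adjusted p = 0.107). Relative to 1000 TPM of the 14 neuron markers, Slc16a3 was at 0.227 to 0.525 at ZT20 and at 0.0934 to 0.133 at ZT8. Relative to the 4 markers that passed, it was at 2.6 to 7.74 and at 2.36 to 3.6, with overlap. Slc16a1, the widely expressed transporter, was at 23.2 to 29.5 TPM and 18.3 to 24.1 TPM (log2 difference 0.41, limma adjusted p = 0.112). Slc16a7, the high-affinity transporter of neurons, was at 5.08 to 6.05 TPM and 6.49 to 7.57 TPM. Its ZT20 samples were all below its ZT8 samples, and the log2 difference of −0.26 did not pass (limma adjusted p = 0.334). Slc16a7 passed in 1 of 14 alternatives, the length correction (−0.94, limma adjusted p = 0.0209).

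The pyruvate dehydrogenase complex, the gate from glycolysis to the mitochondrial citrate cycle, had 4 tested subunit genes, and none passed. Pdhb, the beta subunit of the first enzyme, was at 361, 377, 358 and 384 TPM at ZT20 and at 452, 425 and 576 TPM at ZT8. Its ZT20 samples were all lower, and its log2 difference was −0.38 (limma adjusted p = 0.0713). Pdha1, the alpha subunit that pairs with it, was at 182 to 240.0 TPM and 119 to 193 TPM, with a log2 difference of 0.45 (limma adjusted p = 0.123). Pdhb passed in 3 of 14 alternatives, which were median-ratio scaling (−0.61, limma adjusted p = 0.0211), the length correction (−0.48, limma adjusted p = 0.0406) and leaving out ZT8 replicate 2. It was at −0.24 without ZT8 replicate 3 and at −0.28 under quantile normalization. Dlat, the acetyltransferase, and Dld, the dehydrogenase that other complexes share, had log2 differences of 0.34 and 0.12 (limma adjusted p-values of 0.216 and 0.474), and of −0.021 and −0.013 once corrected for length. Over fits with 1 sample left out, Pdha1 ran from 0.24 to 0.58 and Dlat from 0.15 to 0.47.

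The kinases that switch the complex off did not pass either. Pdk1 was at 11.4 to 16.4 TPM at ZT20 and 8.30 to 9.93 TPM at ZT8, without overlap (log2 difference 0.52, limma adjusted p = 0.0888). With quantile normalization it was 0.20, and corrected for length it was 0.0090 (limma adjusted p = 0.978). Pdk2 and Pdk3, the most abundant of the kinases, had log2 differences of 0.26 and 0.28 with overlapping ranges (limma adjusted p-values of 0.539 and 0.387). Pdk4, the kinase induced by fasting, was at the lowest level of the set.

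The pentose phosphate pathway makes NADPH and ribose from glucose 6-phosphate. Tkt, the transketolase, was at 259.6, 208, 263 and 260.0 TPM at ZT20 and at 204, 102 and 187 TPM at ZT8. The groups did not overlap, though by a narrow margin, and the log2 difference of 0.65 did not pass (limma adjusted p = 0.0865), nor did it in any of the 14 alternatives. Without ZT8 replicate 2, the lowest sample, it was 0.34. G6pdx and Pgd, the enzymes that make NADPH, had log2 differences of 0.40 and 0.33 (limma adjusted p-values of 0.114 and 0.221). Taldo1, the transaldolase, had a difference of −0.14 (limma adjusted p = 0.352). In G6pdx, Pgd and Taldo1 the ranges of the groups overlapped.

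**Figure D3:**
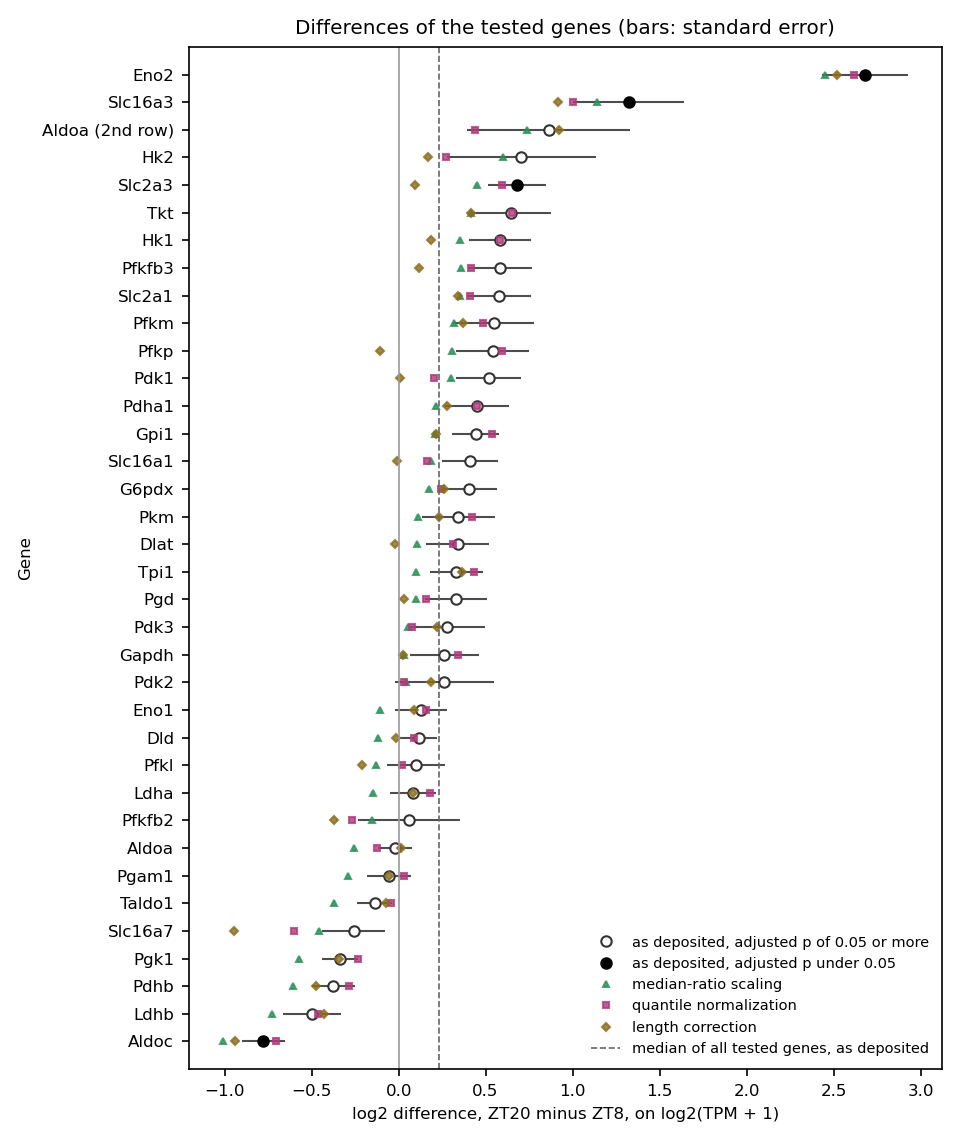
Log2 difference, ZT20 minus ZT8, on log2(TPM + 1) for the 36 tested rows (horizontal axis; circles with standard errors; filled where the limma adjusted p is under 0.05), with the value under each of 3 other scalings. Eno2 and Aldoc stand at the ends under every scaling shown except that Slc16a7 reaches Aldoc after the length correction, and most other values lie near the dashed median of all tested genes.

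Isozymes of 1 step were compared within each sample, because a scaling factor of a whole sample cancels in such a ratio, apart from the added 1. The log2 ratio of TPM + 1 was tested for 9 pairs by exact permutation, two-sided, using all 35 ways to divide 7 samples into 4 and 3, which allow no p below 0.0286. For 6 pairs the groups did not overlap, and each gave exact p = 0.0286, with 0.0429 after adjustment over the 9 pairs. Each of these p-values is the smallest possible, and the pairs were chosen with earlier results of these data known. How often other gene pairs separate was not computed, while 33.2% of single tested genes did not overlap in either direction. Eno2 against Eno1 differed by 2.55, from a mean log2 ratio of −5.29 ± 0.812 (SD, n = 3) at ZT8 to −2.74 ± 0.168 (SD, n = 4) at ZT20. Aldoc against Aldoa differed by −0.76, Slc16a7 against Slc16a1 by −0.67, and Ldhb against Ldha by −0.58. Pfkfb2 against Pfkfb3 differed by −0.52 and Pfkl against Pfkm by −0.45. On these ratios the enolase, aldolase, lactate dehydrogenase, monocarboxylate transporter and Pfkfb pairs separated, even where the separate genes did not pass. Between Pfkl and Pfkm the margin was small, at −0.309 or lower at ZT20 and −0.2585 or higher at ZT8. The Pfkl share of phosphofructokinase TPM overlapped between the groups. Slc2a3 against Slc2a1 differed by 0.10 (adjusted exact p = 0.845), Hk2 against Hk1 by 0.12 (adjusted exact p = 0.932) and Pfkp against Pfkm by −0.0065 (adjusted exact p = 0.971), with overlapping groups in each. After the length correction Pfkp against Pfkm differed by −0.48 (exact permutation p, adjusted, of 0.0429) and Ldhb against Ldha by −0.51 (exact permutation p, adjusted, of 0.0735).

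**Figure D4:**
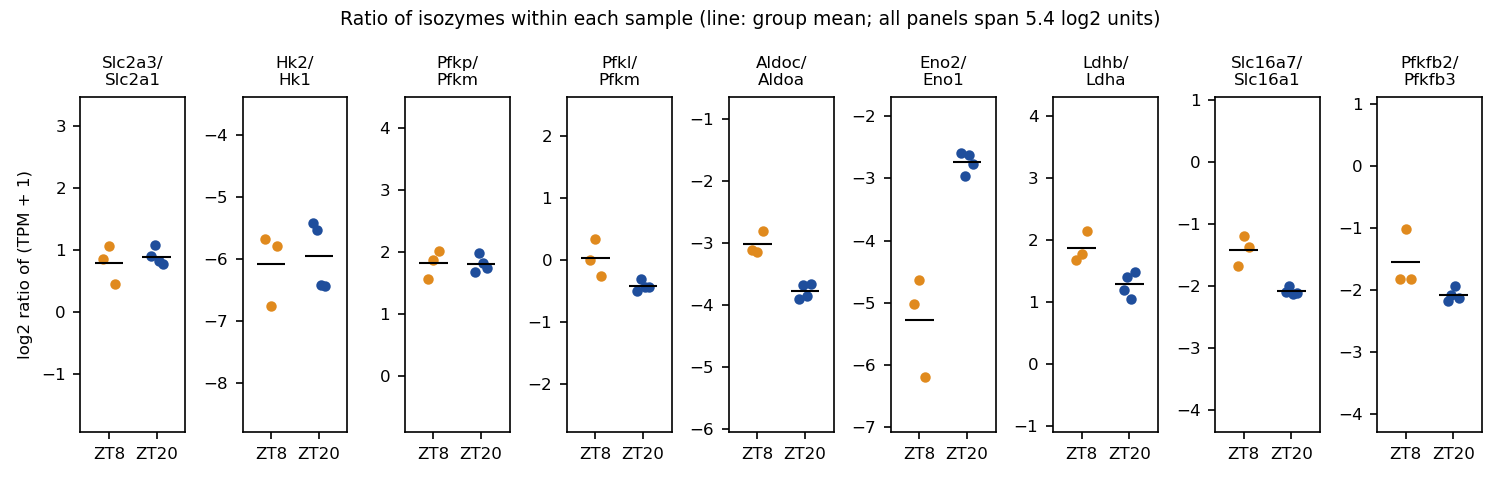
Log2 ratio of (TPM + 1) of 2 isozymes within each sample (vertical axes, all with the same span) for the 9 pairs, with 1 point per sample and a line at the group mean. The ratio Eno2/Eno1 separates the groups by 2.55 units, 5 other pairs separate by 0.45 to 0.76, and Slc2a3/Slc2a1, Hk2/Hk1 and Pfkp/Pfkm overlap.

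With ZT20 replicates 3 and 4 left out, limma called 0 of the 14800 genes at an adjusted p-value under 0.05, while 2425 genes and 4 members of the set had an unadjusted p-value under 0.05. The log2 differences were then 2.62 for Eno2, −0.73 for Aldoc, 1.43 for Slc16a3 and 0.77 for Slc2a3 (limma adjusted p-values of 0.102, 0.168, 0.228 and 0.203), and 33 of the 36 rows had the same sign as with all samples. Without ZT8 replicate 2, they were 2.83 for Eno2, −0.81 for Aldoc, 1.26 for Slc16a3 and 0.60 for Slc2a3 (limma adjusted p-values of 0.00292, 0.0093, 0.0439 and 0.0493), and Ldhb and Pdhb passed as lower at ZT20. The isozyme ratios without ZT8 replicate 2 were 2.88 for Eno2 against Eno1, −0.82 for Aldoc against Aldoa, −0.63 for Ldhb against Ldha, −0.56 for Slc16a7 against Slc16a1, −0.29 for Pfkl against Pfkm and −0.25 for Pfkfb2 against Pfkfb3. Pgk1, Pdha1, Pdk3 and G6pdx are X-linked in GENCODE M21. In ZT20 replicates 3 and 4, Pdha1 had 240.0 and 239 TPM, against 216 and 182 TPM in replicates 1 and 2, and Pdk3 had 42.9 and 40.2 TPM, against 35.1 and 28.8 TPM. Both were higher in replicates 3 and 4, while Pgk1 (380.2 and 411 against 383 and 447 TPM) and G6pdx (47.2 and 50.7 against 53.3 and 38.4 TPM) had overlapping values. Without replicates 3 and 4 the log2 differences were 0.31 for Pdha1, 0.093 for Pdk3, −0.31 for Pgk1 and 0.35 for G6pdx, and none of these genes passed with or without them by limma.

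Other genes of glucose metabolism were read from lists on neighbouring steps. The mitochondrial pyruvate carrier, which is made of Mpc1 and Mpc2, fell at ZT20. Mpc1 was at 723, 738, 599 and 649.9 TPM at ZT20 and at 1011, 1142 and 875 TPM at ZT8 (log2 difference −0.57, standard error 0.13, limma adjusted p = 0.0225). Mpc2 was at 282, 261, 242 and 232 TPM and at 370.1, 514 and 354 TPM (log2 difference −0.68, standard error 0.15, limma adjusted p = 0.021). In both genes every ZT20 sample was below every ZT8 sample, and both passed under each of the 3 other scalings. Pdp2, a phosphatase that switches pyruvate dehydrogenase on, rose, at 9.03 to 21.2 TPM and 2.57 to 7.49 TPM (log2 difference 1.42, limma adjusted p = 0.0345). Pdp2 passed under none of the 3 other scalings, at 0.87 to 1.22 (limma adjusted p from 0.0747 to 0.214), with the lowest value after the length correction. Of the 11 tested genes on pyruvate entry, 1 was higher (9.09%, against 12.8% of all tested genes) and 2 were lower (18.2%, against 3.61%), with a median log2 difference of 0.029. Under each of the 3 other scalings 0 were higher and 2 lower by limma, where 7.84%, 5.5% and 4.84% of all genes were lower with median-ratio scaling, quantile normalization and the correction for length.

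Glycogen genes had 4 of 18 tested higher at ZT20 (22.2%) and 0 lower, against the background of 12.8% and 3.61%. Pgm2l1, which makes glucose 1,6-bisphosphate, was at 47.6, 59.4, 51.5 and 53.2 TPM at ZT20 and at 19.7, 13.0 and 16.3 TPM at ZT8. Its log2 difference was 1.65 (standard error 0.17, limma adjusted p = 0.00205), and it passed under each of the 3 other scalings. Phkb, a subunit of phosphorylase kinase, differed by 0.97 (limma adjusted p = 0.0203). Phkb passed under none of the 3 other scalings, at 0.45 to 0.75 (limma adjusted p from 0.0553 to 0.258). The list had a median log2 difference of 0.47. With median-ratio scaling 2 of its genes were higher (median 0.25), with quantile normalization 3 (median 0.29) and with the length correction 1 (median 0.25), beside 7.62%, 6.91% and 3.3% of all genes.

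Among regulators of glycolytic genes, 9 of 20 tested were higher (45%, against 12.8% of all tested genes) and 0 were lower (against 3.61%), with a median log2 difference of 0.78. Called were Hif1a, Prkaa1, Mlxip, Egln1 (1.09), Epas1 (0.89), Tsc2 (0.80), Hif1an (0.79), Prkaa2 (0.79) and Myc (0.77). The list was not divided by whether a gene promotes or restrains glycolysis. Hif1a, the subunit of hypoxia-inducible factor that oxygen destabilizes, was at 30.0, 26.7, 35.8 and 35.3 TPM at ZT20 and at 19.4, 8.15 and 16.4 TPM at ZT8 (log2 difference 1.14, limma adjusted p = 0.0267). Prkaa1, a catalytic subunit of AMP-activated kinase, was at 39.2, 39.3, 48.0 and 49.6 TPM and at 19.1, 21.1 and 18.1 TPM (log2 difference 1.13, standard error 0.15, limma adjusted p = 0.0041). Neither gene had overlapping groups. Mlxip, a glucose-sensing transcription factor, was at 2.37 to 2.99 TPM at ZT20 and 0.256 to 1.04 TPM at ZT8 (log2 difference 1.11, limma adjusted p = 0.027). Its ZT8 mean of 0.756 TPM was under the filter of 1 TPM. It passed that filter only through the ZT20 samples, so this call carries little weight. Hif1a was at 0.69 and Mlxip at 0.49 after the length correction (limma adjusted p-values of 0.0904 and 0.252), and Mlxip was at 0.70 under quantile normalization (limma adjusted p = 0.0687). The counts of this list depended on scaling, with 4 higher under median-ratio scaling, 2 under quantile normalization, and 2 higher and 1 lower after the length correction, where 7.62%, 6.91% and 3.3% of all genes were higher. The median of the list was 0.56, 0.48 and 0.18 under these scalings. Of the other hypoxia-inducible genes, 11 were tested and limma called 0 (against 16.4% of all genes in either direction), with 4 at an unadjusted p-value under 0.05, as were 5122 of the 14800 genes. Under the other scalings 2, 1 and 2 of them were lower, and these were Mxi1 in each (−0.76, −0.83 and −1.04) and Bnip3l with median-ratio scaling and the length correction, both named after their values were seen. The shares of all genes that were lower there were 7.84%, 5.5% and 4.84%. Of the 14 alternatives, Pgm2l1 and Prkaa1 passed in 13 each, Mpc1 and Mpc2 in 9 each and Hif1a in 8, while Mlxip and Phkb passed in 6 each and Pdp2 in 3. Without ZT8 replicate 2 the log2 differences were −0.48 for Mpc1, −0.51 for Mpc2, 1.51 for Pgm2l1, 0.80 for Hif1a and 1.19 for Prkaa1, and each passed by limma. Without ZT20 replicates 3 and 4 they were −0.46, −0.58, 1.67, 0.98 and 0.98, and none passed (limma adjusted p from 0.107 to 0.281).

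The remaining lists held few calls. Of 19 other tested glycolysis, transport and lactate genes 0 were higher (against 12.8% of all tested genes) and 2 were lower (10.5%, against 3.61%), and these were Bsg, the chaperone of monocarboxylate transporters (log2 difference −0.36, limma adjusted p = 0.0338), and Tigar, a fructose bisphosphatase (−1.06, limma adjusted p = 0.0332). Bsg was at 1098 to 1207 TPM at ZT20 and 1446 to 1562 TPM at ZT8. Of 6 other tested pentose phosphate genes 0 were higher and 2 were lower (33.3%, against 3.61%), Prps1 (−0.54, limma adjusted p = 0.0289) and Rbks (−0.65, limma adjusted p = 0.0462). Tigar and Prps1 passed in 7 of the 14 alternatives each, and Bsg and Rbks in 3 each. In Bsg, Tigar, Prps1 and Rbks every ZT20 sample was below every ZT8 sample. By limma 0 of 10 NADH shuttle genes, 0 of 18 tricarboxylic acid cycle genes and 0 of 5 gluconeogenesis genes passed (against 16.4% of all genes), with medians of 0.13, 0.15 and −0.17 on the log2 scale and 2, 7 and 0 genes at an unadjusted p-value under 0.05, a threshold that 5122 of all 14800 genes passed. Suclg1 of the tricarboxylic acid cycle, named after its values were seen, was the 1 gene of these 3 lists that passed under other scalings, as lower in each of the 3 (−0.58, −0.35 and −0.51).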

How the data were processed

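RNA sequencing values of 7 samples (4 at ZT20, 3 at ZT8, grouped by sample title) were taken from 1 table. The authors deposited TPM values, 1 column per sample. The submitters' processing notes name FastQC 0.11.9, Trim Galore 0.6.6, Salmon 1.6.0, DESeq2 1.34.0 and the build GRCm39, with no role or order. The annotation release and any scaling between samples are not given in the sources used here. Because each sample has the same TPM sum, depth is unknown.

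Values were analysed as log2(TPM + 1), a scale that understates the change of low genes. The 14800 genes averaging 1 TPM or more were fitted with limma 3.58.1 (R 4.3.3, intensity trend). The model held the group only, for all 7 samples, and two-sided p-values were adjusted by Benjamini-Hochberg, with 0.05 as the threshold. On simulated data for 14800 genes with 200 changed, the fit recovered 57.5% of changes of 1.5 and 90.5% of changes of 3 on the log2 scale. Alternatives were a pseudocount of 0.1, no filter, median-ratio scaling, quantile normalization, a loess correction for transcript length (span 0.3, GENCODE M21 lengths for 99.6% of tested genes), the replicate number as a block, and samples left out. The members, pairs and lists were chosen with earlier results of these data known. By rule, called members, isozyme pairs and the most abundant members were to be named, as were up to 3 called genes per direction in each other list. Several of these are given by range or by difference only. The remaining called regulators were named in addition, and the ratios to cell type markers were added after the values were seen. Transcripts were compared with blastn 2.17.0, and figures were drawn with matplotlib 3.10.9. The list of other hypoxia-inducible genes had 14 of its 15 symbols in the table. Coordinates of the table's build were not used. The values of 1 gene of the other lists are not reported here.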

Additional observations from a re-analysis of the deposited data

Results flagged for a closer look

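Tkt in ZT20 replicate 2 was the only value of the 37 rows that lay apart from the rest of its ZT20 group by Dixon's criterion at 95%. It was 208 TPM, while ZT20 replicates 1, 3 and 4 were at 259.6 to 263 TPM, so that its distance to the next sample was 0.933 of the range. About 1 in 20 groups shows this by chance. The log2 difference of Tkt was 0.73 without ZT20 replicate 2 and 0.34 without ZT8 replicate 2 (limma adjusted p = 0.0995 in both). The ZT8 group has 3 samples and was not examined this way.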

How the results depend on the processing

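TPM keeps no depth, so counting error limits the low genes by an unknown amount. Over 14 alternatives, Eno2 and Aldoc passed in 13 each, at 2.36 to 2.84 and −1.01 to −0.68, with adjusted p-values of 0.0022 to 0.102 and 0.00869 to 0.168 by limma; the exception was leaving out ZT20 replicates 3 and 4. The cause of the changes listed here was not tested, beyond the fewer samples or the larger number of genes tested.

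Without the filter, 978 genes were higher and 200 lower, 1 member was higher, and in the other pathway lists 5 genes were higher and 0 lower by limma. Under median-ratio scaling, 1128 genes were higher and 1160 lower, 4 members were lower, 6 other pathway genes were higher and 11 lower, and 4 members were higher without overlap (16.3% of all genes). Its log2 differences turned for Pfkl (−0.13), Pfkfb2 (−0.15), Eno1 (−0.11), Ldha (−0.15) and Dld (−0.12). Under quantile normalization, 1023 genes were higher and 814 lower, 5 other pathway genes were higher, 3 members were lower without overlap (14.4% of all genes), and Pfkfb2 (−0.27) and Pgam1 (0.031) turned. After the length correction, 489 genes, 1 member and 3 other pathway genes were higher and 3 members lower. Pfkl (−0.21), Pfkp (−0.11), Pfkfb2 (−0.37), Aldoa (0.016), Slc16a1 (−0.0098), Dlat (−0.021) and Dld (−0.013) turned, as did the ratios Slc2a3/Slc2a1 (−0.25) and Hk2/Hk1 (−0.016). Pfkp/Pfkm was −0.48 and passed, and Ldhb/Ldha was −0.51 and did not.

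Shared replicate numbers were not taken as pairs. Same-numbered samples correlated at −0.0141, 0.153 and 0.083 in their deviations from the group means. ZT20 replicate 1 correlated best with ZT8 replicate 2 (0.04), and ZT20 replicate 2 correlated best with its own number. These few correlations of group-centred values cannot exclude a pairing. With the number as a replicate block, which gives ZT20 replicate 4 no weight, 891 genes were higher and 283 lower, 1 member was higher and 1 lower, and 6 other pathway genes were higher and 2 lower. In that block fit Pfkfb2 was −0.013 and Aldoa 0.0015, and the ratios, which cannot pass over 8 sign flips, were 0.014 for Pfkp/Pfkm, −0.44 for Pfkl/Pfkm, −0.80 for Aldoc/Aldoa, 2.56 for Eno2/Eno1, −0.65 for Ldhb/Ldha, −0.66 for Slc16a7/Slc16a1 and −0.50 for Pfkfb2/Pfkfb3.

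Without ZT20 replicates 3 and 4, an alternative chosen after seeing the data, limma called 0 genes (2425 at an unadjusted p-value under 0.05), 0 members and 0 other pathway genes. Pfkl was −0.025, Pfkfb2 −0.097 and Aldoa 0.039, and the ratios were 0.019 for Pfkp/Pfkm, −0.43 for Pfkl/Pfkm, −0.77 for Aldoc/Aldoa, 2.51 for Eno2/Eno1, −0.56 for Ldhb/Ldha, −0.63 for Slc16a7/Slc16a1 and −0.57 for Pfkfb2/Pfkfb3.

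Leaving out 1 sample at a time gave 543 to 2374 genes higher and 81 to 681 lower, 1 to 5 members higher and 1 to 3 lower, 2 to 15 other pathway genes higher and 0 to 7 lower, and 10 to 19 members higher and 5 to 6 lower without overlap, where 25.2% to 32.1% of all genes were higher and 9.48% to 13.5% lower without overlap. The ratios, whose smallest exact permutation p is then 0.1 or 0.0667, ran from −0.069 to 0.24 for Slc2a3/Slc2a1, −0.22 to 0.32 for Hk2/Hk1, −0.13 to 0.095 for Pfkp/Pfkm, −0.59 to −0.29 for Pfkl/Pfkm, −0.82 to −0.65 for Aldoc/Aldoa, 2.10 to 2.88 for Eno2/Eno1, −0.67 to −0.44 for Ldhb/Ldha, −0.80 to −0.56 for Slc16a7/Slc16a1 and −0.66 to −0.25 for Pfkfb2/Pfkfb3. Log2 differences that turned ran from −0.031 to 0.26 for Pfkl, −0.20 to 0.40 for Pfkfb2, −0.047 to 0.0087 for Aldoa, −0.17 to 0.074 for Pgam1, −0.045 to 0.27 for Eno1, −0.026 to 0.15 for Ldha and −0.11 to 0.49 for Pdk2.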

Other observations

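Transcripts that share sequence with Pgam1, the phosphoglycerate mutase, differed between libraries and not by group. The 3 genes that share at least 200 bases at 90% identity with it summed to 29.6, 13.6, 0.233 and 33.3 TPM in ZT20 replicates 1 to 4 and to 39.2, 44.0 and 0.207 TPM in ZT8 replicates 1 to 3, with Pgam1-ps2 the most abundant. The Pgam1 row itself ran only from 657 to 919 TPM. Copies of Eno1, led by Eno1b, summed to 10.9 to 33.9 TPM, at most 1.82% of the Eno1 row. Pitrm1, which shares such a stretch with Pfkp, was at 21.7 to 32.2 TPM, at most 14.1% of the Pfkp row. For 21 of the 37 rows no such copy was found, among them Eno2, Aldoc, Slc2a3 and Slc16a3.

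The summed TPM of the whole set was close in the groups. It took up 1.54% to 1.67% of all TPM in the ZT20 samples and 1.32% to 1.74% in the ZT8 samples, with ZT8 replicate 2 the lowest and ZT8 replicate 3 the highest.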
